A study of Mus musculus with 2 samples.

Results

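Neuregulins and other ligands of the epidermal growth factor family carry signals to the ERBB receptors of neighbouring cells. The genes described here were 5 of these ligands, Nrg1, Nrg2, Nrg4, Hbegf and Egf, and the 4 receptors Egfr, Erbb2, Erbb3 and Erbb4. They were chosen by name, as the genes of the count matrix whose symbol equals one of these names, and made up 9 of its 32589 genes. Messenger RNA in single nuclei of mouse heart was counted with the GEXSCOPE kit in 2 libraries, 1 per group. All animals were male C57BL/6 mice, 8 weeks old when injections began. The PD-1 inhibitor group, called the treated library here, received an antibody against mouse PD-1 into the peritoneum at 5 mg/kg on days 1 and 14 of a 28-day cycle. The Control group received PBS at the same times. How many hearts went into each library was not given. Without replicates nothing could be tested between groups, and any difference between the libraries cannot be told apart from differences between animals or preparations.

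As background, a ligand is made as a membrane protein and cut free by proteases, and its binding makes 2 receptors pair and phosphorylate each other. Egf and Hbegf bind Egfr, Hbegf also binds Erbb4, Nrg1 and Nrg2 bind Erbb3 and Erbb4, Nrg4 binds Erbb4, and Erbb2 has no ligand of its own but is a common partner of the others. In the heart, Nrg1 from endocardium and endothelium acts on Erbb4 and Erbb2 of cardiomyocytes, a route needed for the trabeculae of the embryonic heart and for the upkeep of adult muscle.

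The deposited matrices held 10197 nuclei and 13177525 UMIs (unique molecular identifiers, each standing for 1 captured RNA molecule) in the Control library, and 7967 nuclei and 10875248 UMIs in the treated library. The median was 1020 UMIs per nucleus in the Control and 1066 in the treated library, and 48 barcodes occurred in both libraries. After filtering and removal of doublets, 9522 Control and 7644 treated nuclei were kept. These were grouped into 22 clusters, of which 21 were named from marker genes as 10 cell types. The names mean that nuclei resembled a type by its markers (EC-like, fibroblast-like and so on), since no label gave them. The 9 genes took no part in the clustering or the naming.

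Cell types were named by their markers, although a UMI of a marker can also stem from free RNA. Some lists were shared between types, and fibroblast markers in mesothelial cells reached 39.0% (Control) and 30.3% (treated) of their fibroblast level. All 12 endothelial markers had a UMI in the endothelial cells (ECs), where they summed to 11858 CPM (counts of a gene or list for each 1000000 UMIs of the same nuclei) in the Control and 11945 in the treated library, with Eng the most abundant. In fibroblasts, 10 of 10 markers were seen and Dcn was the most abundant, at 8520.3 and 12482 CPM. Cardiomyocyte markers, 10 of 10, summed to 62713 and 62543 CPM in cardiomyocytes. The adipocyte markers reached 10 of 10 in the Control and 9 of 10 in the treated library, as did the glial markers. Numbers of nuclei were uneven, and the Control library held 154 adipocyte nuclei where the treated library held 16. For glial cells the numbers were 31 and 10.

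Free RNA from broken cells can reach all nuclei, and the markers were used as a scale of how much. This takes free RNA to carry a member and the markers in the same proportion as the source nuclei, which was not tested. Doublets left among the nuclei were not told apart from free RNA. In mononuclear phagocytes (MPs, macrophages and dendritic cells) the cardiomyocyte markers stood at 4.85% of their cardiomyocyte level in the Control and 4.92% in the treated library. In ECs they stood at 4.92% and 5.07%. A member near such a share of the level in its source cells is read here as background.

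For each gene and cell type, UMIs were summed over nuclei and divided by all UMIs of those nuclei, giving CPM. Differences are given as log2 ratios, PD-1 inhibitor over Control, with 95% intervals in brackets. All intervals, here and for levels and shares, cover counting error only and leave out the variation between animals. Those of levels and ratios also leave out the gathering of a gene's UMIs in few nuclei. A ratio was counted where a gene had at least 50 UMIs over both libraries, and a ratio past 1.5-fold in either direction was singled out. With these limits 25 pairs of a gene and a cell type could be compared, covering 8 of the 9 genes and 7 cell types, and Erbb3 had no such pair.

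Of the 25 pairs, 2 were past 1.5-fold higher in the treated library, 3 were past 1.5-fold lower, and 20 lay between. The higher pairs were Nrg4 in adipocytes and Erbb4 in mural cells (pericytes and smooth muscle cells). The lower pairs were Egf in cardiomyocytes, Erbb4 in cardiomyocytes and Erbb4 in MPs. Intervals lay wholly above 0 for 3 pairs and wholly below 0 for 5.

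These counts stood beside the same counts over all genes of each cell type. In ECs, 0 of 5 members were past 1.5-fold, whereas 6.05% of 10691 genes were higher and 4.54% lower. In fibroblasts it was 0 of 4 members, with 5.57% of genes higher and 3.94% lower. In cardiomyocytes 2 of 6 members were lower and 0 higher, against 8.04% and 8.19% of 9228 genes. In MPs 1 of 3 members was lower and 0 higher, against 6.59% and 7.16% of genes. In mural cells 1 of 2 members was higher and 0 lower, against 8.02% and 8.84% of genes. In mesothelial cells, the covering layer of the heart, it was 0 of 3 members, with 5.58% of genes higher and 6.20% lower. In adipocytes 1 of 2 members was higher and 0 lower, against 15.6% and 23.8% of genes. With so few members per cell type, a single gene sets each count, so the shares of all genes are a scale for the values and not a test. In all kept nuclei together, 1 of 9 members, Nrg4, was lower and 0 were higher, against 5.03% and 4.57% of 14372 genes.

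**Figure D1:**
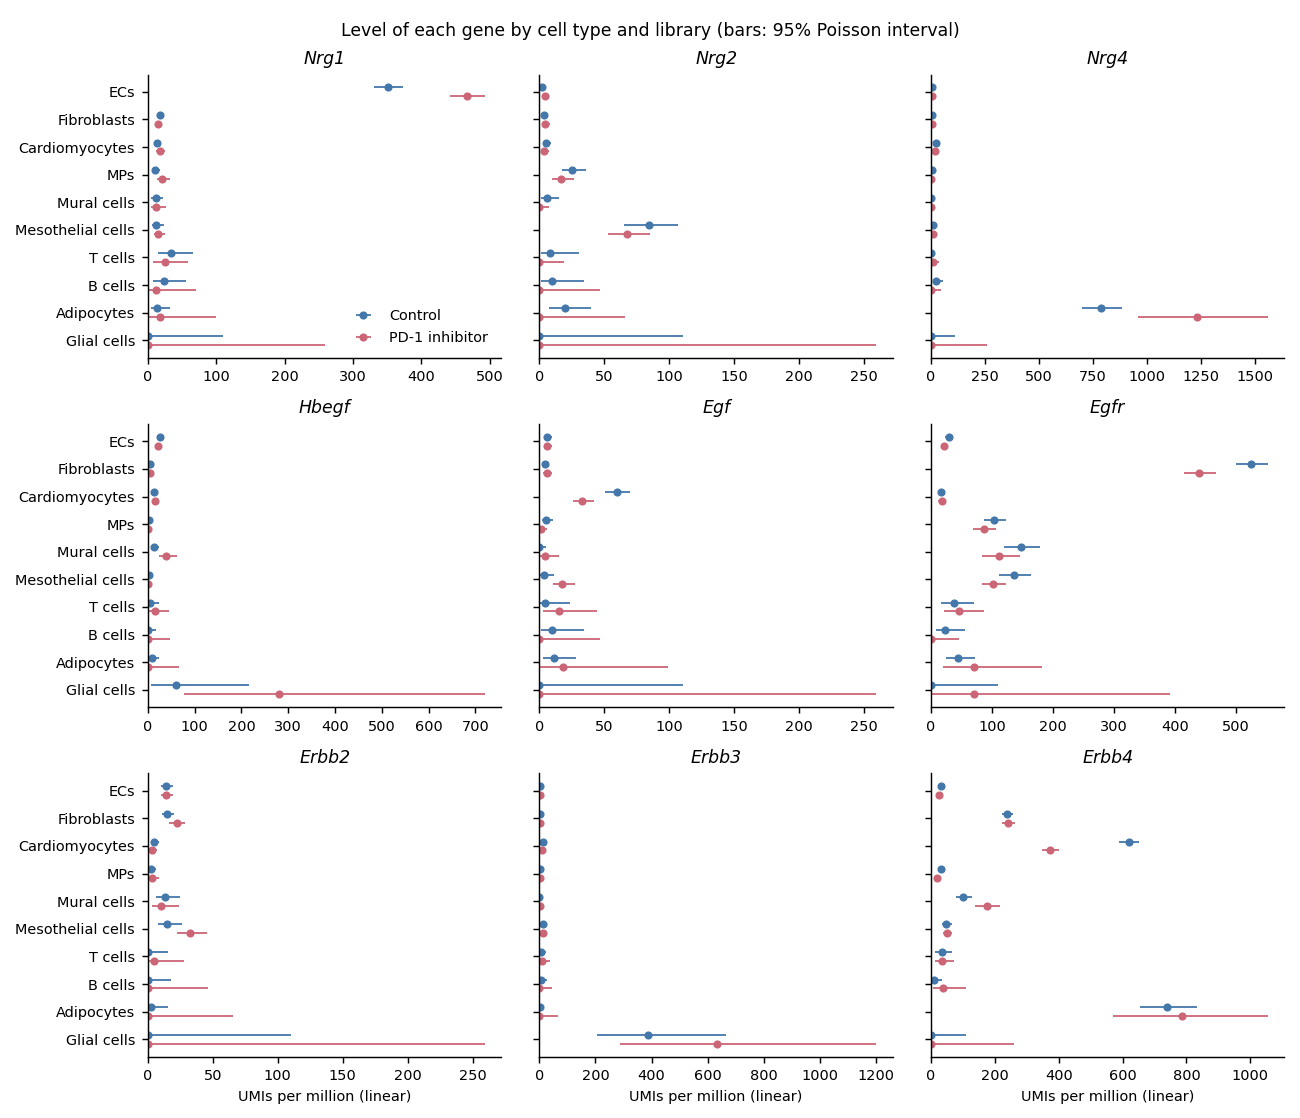
Level of each of the 9 genes (CPM, linear axis) in the 10 cell types, Control in blue and PD-1 inhibitor in red, with bars for the 95% Poisson interval of the count. Nrg1 stood out in ECs (352 and 467), Nrg4 in adipocytes (789 and 1231) and Egfr in fibroblasts (525 and 439.9), whereas Erbb4 was spread over adipocytes, cardiomyocytes, fibroblasts and mural cells.

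Among the ligands, Nrg1, the neuregulin of the endothelium, was found mainly in ECs. The gene (ENSMUSG00000062991) lies on the minus strand of chromosome 8 at 31814551 to 32884029 (GRCm38 build, GENCODE annotation, as for each gene here) and spans 1069 kb. ECs held 1043 Nrg1 UMIs in the Control library, 352 CPM [331 to 374], and 1346 in the treated library, 467 CPM [442 to 493]. They accounted for 88.3% of all Nrg1 UMIs in the Control and 91.7% in the treated library. Over both libraries the EC level was 13.7-fold that of T cells, the next in order with 13 UMIs. Below the ECs each cell type overlapped its neighbour in the order, and glial cells had 0 UMIs. In MPs, Nrg1 stood at 2.98% of the EC level in the Control and 4.47% in the treated library, and EC markers at 5.75% and 5.05%, so Nrg1 in MPs is read as background.

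A UMI of Nrg1 was found in 11.9% of EC nuclei of the Control and 16.5% of the treated library. With each nucleus thinned to 500 UMIs the shares were 8.48% and 11.5%. In MPs the unthinned shares were 1.04% and 2.04%, with median depths of 901.5 and 966 UMIs per nucleus where ECs had 894 and 949. The log2 ratio in ECs was 0.41 [0.29 to 0.53], short of 1.5-fold. The Control and treated intervals of the level did not overlap. Among genes of 500 kb or more, Nrg1 included, the median log2 ratio in ECs was -0.26 over 146 genes, beside 0.41 for Nrg1. The part of gene length in the Nrg1 difference was not tested.

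Within the ECs, Nrg1 was a gene of the endocardium, the lining of the heart chambers. The endocardial ECs, marked by Npr3 and 6 other genes, held 96.3% of the EC Nrg1 UMIs in the Control and 94.5% in the treated library. Their level was 680.3 CPM [639 to 724] in the Control and 762 [721 to 805] in the treated library, with a log2 ratio of 0.16 [0.04 to 0.28]. They made up 49.2% of EC nuclei in the Control and 58.4% in the treated library. Capillary ECs, by contrast, had 24 and 18 Nrg1 UMIs, or 26.0 and 27.8 CPM.

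Smaller EC clusters had few Nrg1 UMIs but more in the treated library. Valve endothelial ECs, which cover the valves, had 10 UMIs in the Control (71.4 CPM) and 25 in the treated library (162 CPM). Arterial ECs had 2 and 21 UMIs, the latter in 7 of 120 nuclei. Lymphatic ECs had 3 and 10. These clusters were each under 50 UMIs, and no ratio was counted for them. All ECs outside the endocardial cluster together had 39 UMIs in the Control (26.2 CPM) and 74 in the treated library (61.0 CPM), a log2 ratio of 1.21 [0.64 to 1.82]. This sum includes the capillary ECs, which were alike by value at 26.0 and 27.8 CPM. It also includes the 21 UMIs of 7 treated arterial nuclei, which fell in a finer cluster made mostly of endocardial nuclei, described below.

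A finer clustering showed where in the endocardium Nrg1 was highest. A cluster led by Rps6ka2, Smoc1 and Tmem108 held 718 UMIs in the Control (1315 CPM) and 1000 in the treated library (1297 CPM), a log2 ratio of -0.02 [-0.16 to 0.12]. It had an Nrg1 UMI in 42.6% of its nuclei in the Control and in 44.5% in the treated library. Thus the level in the cluster with most Nrg1 was alike in both libraries, while the cluster made up 16.1% of EC nuclei in the Control and 23.5% in the treated library. Neighbouring clusters differed in opposite directions. In the cluster led by Ahsg, H19 and Plagl1, Nrg1 was at 228 CPM in the Control and 305 in the treated library, a log2 ratio of 0.42 [0.09 to 0.75]. In the cluster led by Selp, Itgb4 and Lsamp it was at 425 and 241, a log2 ratio of -0.81 [-1.23 to -0.41]. This cluster passed as arterial by 3 of 8 markers, yet 92.5% of its Control and 75.9% of its treated nuclei came from the endocardial cluster above. Nearly all others came from the arterial cluster, and they carried all 2 and 21 Nrg1 UMIs of that arterial cluster. The finer arterial cluster led by Sema3g, Mannr and Gkn3 had 0 in both libraries.

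Weighting the EC clusters equally between libraries gave a log2 ratio for Nrg1 of 0.20 in place of 0.41. With the finer clusters weighted equally, an alternative chosen after seeing the data, it was 0.018. That value averages over clusters whose own ratios pointed in opposite directions. Whether the mix of ECs differed in the hearts or in the recovery of nuclei was not tested.

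**Figure D2:**
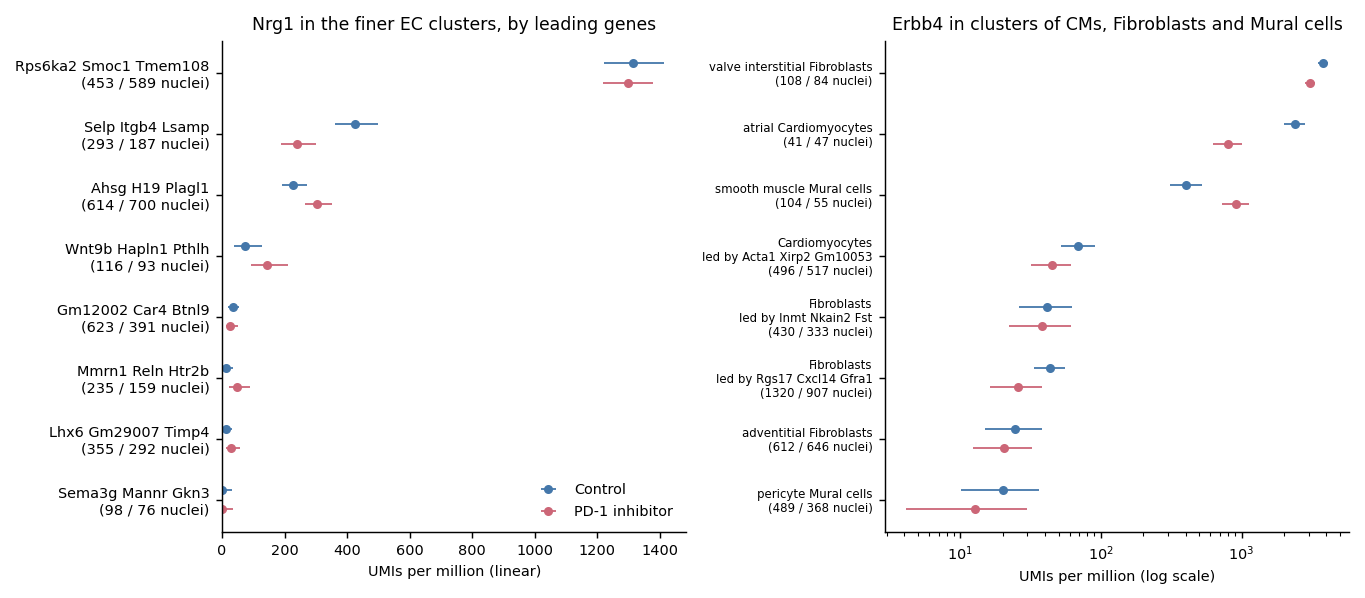
Left, Nrg1 (CPM, linear axis) in the 8 finer EC clusters, and right, Erbb4 (same unit, log axis) in 8 clusters of cardiomyocytes, fibroblasts and mural cells, with Control in blue, PD-1 inhibitor in red and bars for the 95% Poisson interval. Nrg1 was at 1315 and 1297 in the cluster led by Rps6ka2, Smoc1 and Tmem108, and Erbb4 at 3825 and 3076 in the valve interstitial fibroblasts.

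Nrg2, a neuregulin related to Nrg1, was a gene of the mesothelium in these nuclei. Its gene (ENSMUSG00000060275) is on the minus strand of chromosome 18 at 36017652 to 36197380. Mesothelial cells had 67 UMIs in the Control, 84.2 CPM [65.3 to 107], and 70 in the treated library, 67.5 CPM [52.6 to 85.2]. The intervals overlapped, and the log2 ratio of -0.32 [-0.82 to 0.19] included 0. The mesothelial level was 3.43-fold that of MPs, the next in order, which did not overlap it. MPs had 34 UMIs in the Control (25.5 CPM) and 17 in the treated library (16.9 CPM), with a log2 ratio of -0.57 [-1.53 to 0.29]. In MPs Nrg2 was at 30.3% of its mesothelial level in the Control and 25.0% in the treated library, where mesothelial markers were at 1.04% and 1.12%, so this level was above background. Nuclei with an Nrg2 UMI were 8.68% and 10.6% of the mesothelial nuclei (4.34% and 3.25% after thinning), at median depths of 1291 and 1724 UMIs. In ECs, at median depths of 894 and 949 UMIs, they were 0.178% and 0.280%. From MPs downward in the order neighbours overlapped, and glial cells had 0 UMIs.

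Nrg4, a neuregulin known as a secreted product of brown fat, was an adipocyte gene here. The locus (ENSMUSG00000032311) is at 55220222 to 55326844 of chromosome 9, minus strand. Adipocytes had 285 Nrg4 UMIs in the Control, 789 CPM [700.4 to 887], and 69 in the treated library, 1231 CPM [958 to 1558]. Over both libraries this was 41.2-fold the level of cardiomyocytes, the next cell type. A UMI was found in 100 of 154 adipocyte nuclei of the Control and in 13 of 16 of the treated library, at median depths of 1915.5 and 2993.5 UMIs. After thinning the shares were 24.7% and 50%. The adipocyte nuclei also carried Ucp1, the uncoupling protein of brown fat, at 1521 and 1588 CPM.

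The log2 ratio of Nrg4 in adipocytes was 0.65 [0.24 to 1.02], past 1.5-fold. In the treated library it rested on 16 nuclei, of which 5 held 73.9% of the UMIs. Without the 5 highest nuclei of each library the log2 ratio was -0.14 [-0.96 to 0.51], neither past 1.5-fold nor of the same sign. Without the same share of the highest nuclei in each, 48 of 154 and 5 of 16, it was 0.93 [0.06 to 1.67]. Both alternatives were chosen after seeing the data. The sum over all kept nuclei went the other way, with 33.4 CPM in the Control and 14.0 in the treated library, a log2 ratio of -1.25 [-1.54 to -0.98]. Adipocytes supplied 70.5% of all Nrg4 UMIs in the Control from 2.98% of all UMIs, and 47.9% in the treated library from 0.545%. The lower sum thus went with fewer adipocyte nuclei, and whether the hearts or the dissected fat differed was not tested.

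Cardiomyocytes had 54 Nrg4 UMIs in the Control (22.2 CPM) and 38 in the treated library (18.7 CPM), a log2 ratio of -0.24 with an interval that included 0. The sign was the same in 9 of 15 alternatives, which ran from -0.48 to 0.63. Below adipocytes, neighbours in the order overlapped, and glial cells had 0 UMIs. The Nrg4 locus overlaps Fbxo22 on the opposite strand, which had 844 UMIs. Since the strand of counting was not stated, reads from such a partner cannot be told apart.

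Hbegf, the heparin-binding ligand of Egfr and Erbb4, was scarce. Its gene (ENSMUSG00000024486) is also on the minus strand of chromosome 18, at 36504927 to 36515805. The ECs had 76 UMIs in the Control, 25.7 CPM, and 64 in the treated library, 22.2 CPM, with a log2 ratio of -0.21 [-0.71 to 0.29]. Glial cells stood first in the order, but with 2 UMIs in the Control and 4 in the treated library. ECs, mural cells and cardiomyocytes followed with overlaps between neighbours, and B cells had 0 UMIs. In cardiomyocytes it was at 12.7 and 14.3 CPM.

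Among ECs, the valve endothelium had the highest Hbegf level. This cluster held 19 UMIs in the Control (136 CPM [81.7 to 212]) and 27 in the treated library (175 CPM [115 to 254]), in 12 of 96 and 12 of 78 nuclei. This was 25.0% of the EC Hbegf UMIs in the Control and 42.2% in the treated library. Endocardial ECs had 38 UMIs (25.7 CPM) in the Control and 23 (13.8 CPM) in the treated library, a log2 ratio of -0.89 [-1.72 to -0.12]. Of the 5 members compared in endocardial ECs it was the 1 past 1.5-fold lower, against 4.92% of genes there. With nuclei thinned to 500 UMIs, which left 30 UMIs, the log2 ratio was -0.08. In mural cells Hbegf had 9 UMIs in the Control and 19 in the treated library, too few for a counted ratio.

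Egf, the ligand that names the family, was found mainly in cardiomyocytes. On chromosome 3, the gene (ENSMUSG00000028017) takes the minus strand from 129677565 to 129755316 and overlaps the antisense transcript 6330410L21Rik, which had 19 UMIs. Cardiomyocytes had 145 UMIs in the Control, 59.6 CPM [50.3 to 70.1], and 67 in the treated library, 33.0 CPM [25.6 to 41.9]. The intervals did not overlap, and the log2 ratio was -0.85 [-1.29 to -0.42], past 1.5-fold lower. Under each of the 15 alternatives run for it the ratio was past 1.5-fold, from -0.85 to -0.59. Nuclei with a UMI were 6.32% and 4.49% of cardiomyocytes, or 1.72% and 1.28% after thinning. In MPs, Egf had 7 UMIs in the Control and 1 in the treated library. The cardiomyocyte level was 3.96-fold the next, that of adipocytes with 5 UMIs, and from there neighbours overlapped, with 0 UMIs in glial cells.

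Among the cardiomyocytes, a cluster rich in cytoplasmic RNA, led by Acta1, Xirp2 and Gm10053, had 6 Egf UMIs in the Control and 13 in the treated library. The median nucleus of this cluster had 9.48% mitochondrial UMIs in the Control and 8.46% in the treated library. It made up 38.7% of cardiomyocyte nuclei in the Control and 47.4% in the treated library. Mesothelial cells had 3 Egf UMIs in the Control and 18 in the treated library, below the count needed for a ratio.

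Other ligands of the family were Nrg3, Tgfa, Areg, Ereg, Btc and Epgn. Tgfa, another ligand of Egfr, was the one with most UMIs, 179 in the Control and 198 in the treated library. It was highest in mesothelial cells, with 93.0 CPM in the Control and 95.4 in the treated library. Nrg3 totalled 45 and 39 UMIs, Btc 54 and 38, and Ereg 23 and 23. Areg and Epgn had at most 11 UMIs in a library.

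Egfr, the receptor of Egf and Hbegf, was the receptor of the stroma. The gene (ENSMUSG00000020122) is on the plus strand of chromosome 11 at 16752203 to 16918158. Fibroblasts had 1565 UMIs in the Control, 525 CPM [499 to 551], and 1093 in the treated library, 439.9 CPM [414 to 467]. They held 75.3% of all Egfr UMIs in the Control and 74.9% in the treated library. The 2 intervals did not overlap, and the log2 ratio was -0.25 [-0.37 to -0.14], short of 1.5-fold. Fibroblast genes of 84.9 kb or more, Egfr included, had a median log2 ratio of -0.17, and those of 9.83 kb or less 0.20. The part of gene length in the Egfr difference was not tested. After thinning, 19.9% of fibroblast nuclei in the Control and 16.2% in the treated library had a UMI.

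Egfr was not even among the fibroblast clusters. The cluster led by Rgs17, Cxcl14 and Gfra1 had 874 UMIs in the Control (602 CPM) and 479 in the treated library (509.9 CPM), a log2 ratio of -0.24 [-0.40 to -0.08]. In the cluster led by Inmt, Nkain2 and Fst it had 305 UMIs (547 CPM) and 177 (397 CPM), a log2 ratio of -0.46 [-0.74 to -0.19], and -0.12 with nuclei thinned to 500 UMIs. In adventitial fibroblasts, of the vessel wall, it had 346 UMIs (425 CPM) and 362 (392 CPM), a log2 ratio of -0.12 with an interval that included 0. These 3 clusters were all lower in the treated library by value. The share of nuclei with a UMI in the cluster led by Rgs17 was 38.0% in the Control and 30.4% in the treated library, and after thinning 23.0% and 18.1%.

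Valve interstitial fibroblasts, the cells inside the valve leaflets, went the other way. They had 40 Egfr UMIs in the Control, 252 CPM [180.1 to 343], and 75 in the treated library, 426 CPM [335 to 535], a log2 ratio of 0.75 [0.19 to 1.35]. Of the 2 members compared there it was the 1 past 1.5-fold higher, against 10.2% of genes. The median depth of these nuclei was 1091 UMIs in the Control and 1714.5 in the treated library, and with nuclei thinned to 500 UMIs the log2 ratio was -0.12, from 29 UMIs. The other 5 alternatives run for it stayed within the interval, but only 3 of the 6 were past 1.5-fold.

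After fibroblasts, mural cells stood next in the Egfr order at a level 3.65-fold lower. Mural cells had 102 UMIs in the Control (148 CPM) and 54 in the treated library (112 CPM). Mesothelial cells had 108 UMIs (136 CPM) and 106 (102 CPM), with a log2 ratio of -0.41 [-0.81 to -0.01]. MPs had 138 UMIs (104 CPM) and 87 (86.4 CPM). Mural and mesothelial cells overlapped, as did mesothelial cells and MPs, and MPs did not overlap the adipocytes that came next. In MPs Egfr was at 19.7% of its fibroblast level in the Control and 19.6% in the treated library, whereas fibroblast markers were at 4.41% and 4.04%, so this level was above background. In mesothelial cells it was at 25.9% and 23.2%, and fibroblast markers at 39.0% and 30.3%, so there the marker list gives no such contrast. ECs had a UMI in 2.53% of Control and 2.16% of treated nuclei, and at 5.66% and 4.89% of the fibroblast level they lay below the 11.2% and 13.3% of the fibroblast markers. Egfr in ECs is read as background. Cardiomyocytes, with 42 and 36 UMIs, had a log2 ratio of 0.04 and were likewise at 3.29% and 4.03% of the fibroblast level. Their ratio kept its sign in 9 of 15 alternatives and ran from -1.29 (after thinning) to 0.30.

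Erbb2, the receptor without a ligand, was low in each cell type. On the plus strand of chromosome 11, at 98412470 to 98437716, the gene (ENSMUSG00000062312) overlaps Mien1 on the opposite strand, which had 343 UMIs. Fibroblasts had 44 UMIs in the Control (14.8 CPM) and 55 in the treated library (22.1 CPM), a log2 ratio of 0.58 [-0.01 to 1.19]. This lay just short of 1.5-fold, and 9 of 14 alternatives were past it, up to 0.97. ECs had 42 and 41 UMIs, 14.2 CPM in both libraries. In mesothelial cells, first in the order, it had 12 UMIs in the Control (15.1 CPM) and 34 in the treated library (32.8 CPM), 46 in all and so short of the count needed. Adventitial fibroblasts had 8 and 25 UMIs. Cardiomyocytes, the cells in which Erbb2 pairs with Erbb4, had 12 UMIs in the Control (4.93 CPM) and 7 in the treated library (3.45 CPM). All neighbours in the Erbb2 order overlapped, and B cells and glial cells had 0 UMIs.

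Erbb3, a neuregulin receptor of glia whose own kinase is weak, was a glial gene in these nuclei. Its locus (ENSMUSG00000018166) is on chromosome 10, minus strand, at 128567523 to 128589652. Glial cells had 13 UMIs in the Control, 389 CPM [207 to 665], in 12 of 31 nuclei. In the treated library they had 9 UMIs, 633 CPM [289 to 1201], in 8 of 10 nuclei. The intervals overlapped, and the log2 ratio of 0.73 [-0.70 to 2.04] included 0. Over both libraries the glial level was 35.2-fold the next, that of mesothelial cells with 24 UMIs, and below these neighbours overlapped. Cardiomyocytes had 28 UMIs in the Control (11.5 CPM) and 18 in the treated library (8.87 CPM). In fibroblasts, at median depths of 1043.5 and 1087.5 UMIs, a UMI was found in 5 of 2470 nuclei and in 1 of 1970.

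Erbb4, the neuregulin receptor of cardiac muscle, stood at distinct levels in the first 5 cell types of its order. The gene (ENSMUSG00000062209) spans 1076 kb of the minus strand of chromosome 1, from 68032186 to 69108059. Its order ran from adipocytes through cardiomyocytes, fibroblasts, mural cells and mesothelial cells without overlap between neighbours. Below the mesothelial cells each overlapped the next, and glial cells had 0 UMIs. Each of the leading cell types owed its level to different nuclei.

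In cardiomyocytes Erbb4 had 1510 UMIs in the Control, 621 CPM [590 to 653], and 760 in the treated library, 374 CPM [348 to 402]. The intervals did not overlap, and the log2 ratio was -0.73 [-0.86 to -0.60], past 1.5-fold lower. A UMI was found in 38.8% of Control and 28.1% of treated cardiomyocyte nuclei at median depths of 1408 and 1432 UMIs, and after thinning in 19.0% and 13.8%. In MPs the shares were 2.79% and 1.93%.

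In the cytoplasm-rich cluster led by Acta1, Erbb4 had 53 UMIs in the Control (69.2 CPM) and 39 in the treated library (44.6 CPM), a log2 ratio of -0.63 [-1.27 to -0.01]. It held 3.51% of the cardiomyocyte Erbb4 UMIs in the Control and 5.13% in the treated library. Erbb4 was the 1 member compared there and past 1.5-fold lower, against 7.70% of genes. This held in 2 of 6 alternatives, and the thinned log2 ratio was 0.12.

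In atrial cardiomyocytes, Erbb4 had 144 UMIs in the Control, 2386 CPM [2012 to 2809], and 68 in the treated library, 801 CPM [622 to 1016]. The log2 ratio was -1.57 [-2.01 to -1.15]. The 1 member compared was thus past 1.5-fold lower, as were 29.3% of the 351 genes with enough UMIs in this small cluster. The atrial nuclei held 9.54% of the cardiomyocyte Erbb4 UMIs in the Control and 8.95% in the treated library, and thus most of the count lay outside this cluster and the cytoplasm-rich one. Cardiomyocyte nuclei other than the atrial had a log2 ratio of -0.69 [-0.83 to -0.56]. Nuclei with a UMI were 20 of 41 in the Control and 20 of 47 in the treated library. With nuclei thinned to 500 UMIs the log2 ratio was -1.14, outside the interval. Within each library 5 nuclei held most of the count, 61.1% in the Control and 63.2% in the treated library. Bmp10, a secreted factor of the right atrium, was also lower in these nuclei, at 812 CPM in the Control and 82.5 in the treated library. It is 1 of the 7 atrial markers and was singled out after its value was seen. The levels of the other atrial markers are not given here. Whether the right and left atria were sampled alike was not tested.

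Values that moved with Erbb4 in cardiomyocytes were the mix of clusters, the mitochondrial share and gene length. The median cardiomyocyte nucleus had 0.856% mitochondrial UMIs in the Control and 3.14% in the treated library. Without the cytoplasm-rich cluster, an alternative chosen after seeing the data, the log2 ratio was -0.48, and with the clusters weighted equally it was -0.54, both short of 1.5-fold. Among genes of 500 kb or more, the median log2 ratio in cardiomyocytes was -0.42 over 124 genes, and among the 1846 genes of 10.2 kb or less it was 0.26. In atrial cardiomyocytes the median of the long genes was -1.10 over 22 genes, beside -1.57 for Erbb4. Long genes as a class were thus lower in the treated cardiomyocytes, and the part of this in Erbb4 was not tested.

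A finer clustering of the cardiomyocytes set apart 219 Control and 248 treated nuclei led by BB218582, 5430431A17Rik and Dsc2. Their Erbb4 level was 583 and 575 CPM, a log2 ratio of -0.02 [-0.36 to 0.32]. The difference was thus absent from 1 of the finer cardiomyocyte clusters.

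In fibroblasts Erbb4 was a gene of the valve. Valve interstitial fibroblasts were 4.37% of fibroblast nuclei in the Control and 4.26% in the treated library, and held 85.1% and 90.0% of the fibroblast Erbb4 UMIs. They had 607 UMIs in the Control, 3825 CPM [3527 to 4142], and 541 in the treated library, 3076 CPM [2822 to 3347]. No cell type or cluster of the 21 had a higher Erbb4 level. A UMI was found in 77 of 108 and 64 of 84 nuclei, and in a single nucleus up to 88 in the Control and 47 in the treated library. The log2 ratio of -0.31 [-0.48 to -0.14] was short of 1.5-fold, and it was -0.06 with nuclei thinned to 500 UMIs.

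Fibroblasts other than those of the valve had 37.6 CPM in the Control and 26.0 in the treated library, a log2 ratio of -0.53 [-1.01 to -0.06]. Among them, the cluster led by Rgs17 had 63 UMIs in the Control (43.4 CPM) and 24 in the treated library (25.5 CPM), a log2 ratio of -0.75 [-1.51 to -0.07]. Of its 2 members compared, Erbb4 was the 1 past 1.5-fold lower, against 6.07% of genes. In each library 5 nuclei held 41.3% and 45.8% of these UMIs, and without them the log2 ratio was -0.84 [-1.91 to 0.07]. The level was low beside the 621 and 374 CPM of cardiomyocytes. Cardiomyocyte markers stood in fibroblasts at 4.38% and 4.11% of their cardiomyocyte level, and the part of background in this count was not tested. In fibroblasts as a whole the sums were alike, 239 and 242 CPM, with a log2 ratio of 0.017, although both parts were lower in the treated library. Valve interstitial fibroblasts held 158700 of 2981819 fibroblast UMIs in the Control and 175872 of 2484594 in the treated library. Under alternatives the ratio of the whole ran from -0.33 to 0.10 and kept its sign in 9 of 14.

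In mural cells Erbb4 had 70 UMIs in the Control, 101 CPM [79.0 to 128], and 84 in the treated library, 175 CPM [139 to 216], a log2 ratio of 0.78 [0.31 to 1.26]. This count came from smooth muscle, the contractile layer of arteries. Smooth muscle cells had 59 UMIs in the Control, 404 CPM, in 22 of 104 nuclei. They had 79 UMIs in the treated library, 913 CPM, in 18 of 55 nuclei. The log2 ratio there was 1.17 [0.67 to 1.69], and the 1 member compared was past 1.5-fold higher, against 12.2% of genes. Pericytes had 11 and 5 UMIs.

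The mural value turned negative wherever the smooth muscle nuclei were not set apart from glial nuclei and went unnamed. This happened with at least 500 genes per nucleus (-0.24), with doublets kept (-0.57), at Leiden resolution 0.5 (-0.60) and with the 9 genes kept among the variable genes (-0.60). With nuclei thinned to 500 UMIs it was 0.20, and as a mean over nuclei 0.27, both outside its interval.

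Adipocytes had 267 Erbb4 UMIs in the Control, 739.5 CPM [653 to 834], in 80 of 154 nuclei. In the treated library they had 44 UMIs, 785 CPM [570.3 to 1054], in 8 of 16 nuclei. The log2 ratio was 0.10 [-0.41 to 0.55], and 5 nuclei held 90.9% of the UMIs in the treated library. It was -2.0 [-4.06 to -0.78] without the 5 highest nuclei of each library, and -0.32 [-2.42 to 1.01] without the same share of them.

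In MPs Erbb4 was near the share at which the cardiomyocyte markers stood. MPs had 43 UMIs in the Control (32.3 CPM) and 18 in the treated library (17.9 CPM), a log2 ratio of -0.83 [-1.73 to -0.03]. In the macrophages among them it was -1.05 [-2.04 to -0.20], and of 2 members compared there it was the 1 past 1.5-fold lower, against 7.29% of genes. Erbb4 in MPs was at 5.20% of its cardiomyocyte level in the Control and 4.78% in the treated library, beside 4.85% and 4.92% for the cardiomyocyte markers. It is thus read as background in both libraries, and why it differed was not tested. In the cytoplasm-rich cardiomyocyte cluster Erbb4 was at 69.2 and 44.6 CPM, beside 621 and 374 in all cardiomyocytes. How much Erbb4 the free RNA carried beside the markers was not tested. For ECs the log2 ratio was -0.23 [-0.69 to 0.22], from 93 and 77 UMIs. They were at 5.06% and 7.14% of the cardiomyocyte level, where the markers were at 4.92% and 5.07%, near background in the Control and above it by value in the treated library. Mesothelial cells had 38 UMIs in the Control (47.8 CPM) and 52 in the treated library (50.1 CPM), a log2 ratio of 0.06, and stood higher, at 7.70% and 13.4% of the cardiomyocyte level where the markers stood at 3.77% and 3.48%.

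**Figure D3:**
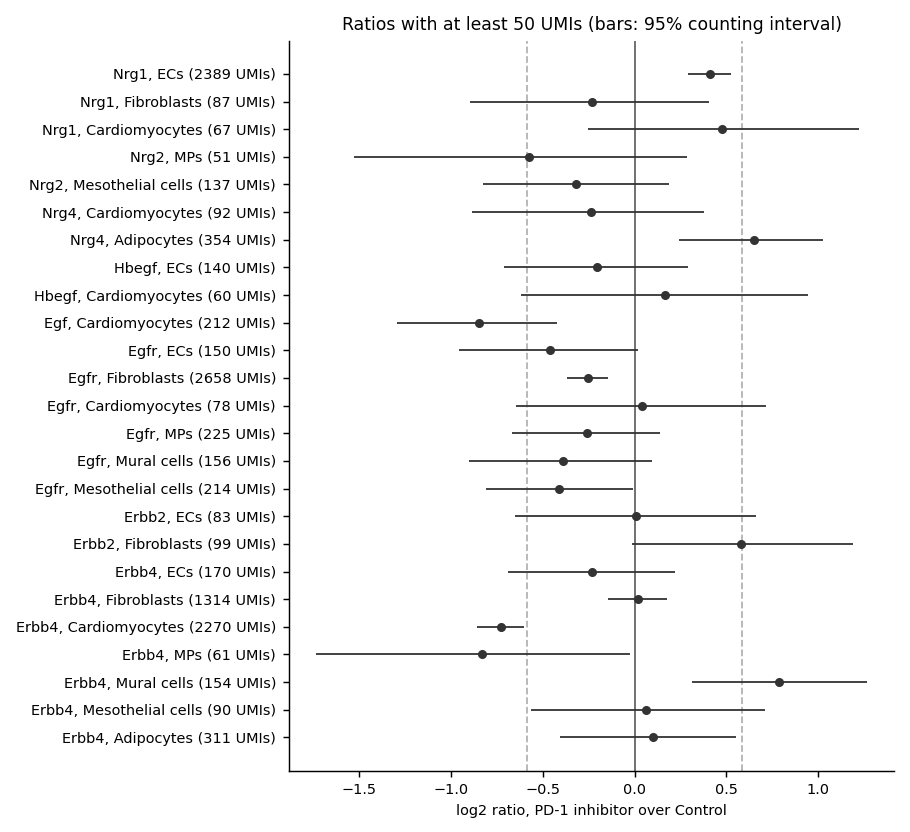
Log2 ratio of PD-1 inhibitor over Control for the 25 pairs of a gene and a cell type with at least 50 UMIs, points with 95% counting intervals, and dashed lines at 1.5-fold. Erbb4 in cardiomyocytes lay at -0.73, Egf in cardiomyocytes at -0.85, Nrg1 in ECs at 0.41 and Egfr in fibroblasts at -0.25.

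Some nuclei held UMIs of 2 receptors together. Of 1282 Control cardiomyocyte nuclei, 498 had an Erbb4 UMI, 9 an Erbb2 UMI and 4 both. Of 1091 in the treated library, 307 had Erbb4, 7 had Erbb2 and 1 had both. In valve interstitial fibroblasts Erbb4 and Egfr were found together in 21 of 108 and 22 of 84 nuclei, where 25 and 30 had an Egfr UMI and 77 and 64 an Erbb4 UMI. At this depth, the absence of a UMI does not show that a nucleus lacked the RNA.

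Genes that carry the signal onward were taken from lists of 56 other genes, namely other ligands, proteases, adaptors, the RAS-MAPK route, the PI3K-AKT route and feedback inhibitors. In ECs 50 of them had enough UMIs, and 0 were past 1.5-fold higher and 2 lower, where 6.05% and 4.54% of all EC genes were. The lower ones were Adam12, a protease of the ligand-cutting family, with 104 UMIs in the Control and 53 in the treated library (log2 ratio -0.93), and Cblb, a ubiquitin ligase, with 248 and 136 (log2 ratio -0.82). The median log2 ratio of the 50 was -0.14, and that of all genes compared in ECs was 0.01. EC genes of 9.71 kb or less had a median of 0.22, and those of 83.2 kb or more -0.17. The part of gene length in the pathway values was not tested, here or in the next 2 cell types.

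In fibroblasts 49 were compared, and 1 was higher and 1 lower, where 5.57% and 3.94% of all fibroblast genes were. Pik3cb, a catalytic subunit of PI3K, had 23 UMIs in the Control and 36 in the treated library, a log2 ratio of 0.90. Adam12 was again the lower one, with 101 and 40 UMIs (log2 ratio -1.06). The median of the 49 was -0.11, and that of all genes was 0.00, with 0.20 for genes of 9.83 kb or less and -0.17 for those of 84.9 kb or more.

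In cardiomyocytes 45 were compared, and 5 were higher and 2 lower, where 8.19% and 8.04% of all cardiomyocyte genes were. The GTPase Hras had 47 UMIs in the Control and 70 in the treated library (log2 ratio 0.83), and the kinase Mapk3 had 31 and 64 (log2 ratio 1.30). Pik3r2, a regulatory subunit of PI3K, had a log2 ratio of 0.63, and the feedback inhibitors Spry1 and Spred2 had 0.78 and 0.66. Lower were the kinase Braf, with 357 and 195 UMIs (log2 ratio -0.61), and Lrig2, with 168 and 91 (log2 ratio -0.62). The list thus held genes past 1.5-fold in both directions, with a median of -0.12 beside -0.01 for all genes compared in cardiomyocytes. Cardiomyocyte genes of 10.2 kb or less had a median of 0.26, and those of 86.8 kb or more -0.27.

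Across 20 points, the 10 cell types in each of the 2 libraries, each gene was set beside 11463 others by the Pearson correlation of its log levels. These points share libraries and depths, so the values are descriptions. Most like Nrg1 were Ifitm10 (r = 0.887), She (0.849) and Tmem108 (0.849), of which Tmem108 was also a marker used to name the endocardium. Nearest to Nrg2 were Anxa9 (0.862), Ccdc181 (0.855) and Bst1 (0.844). For Nrg4 they were Gm49513 (0.927), A530053G22Rik (0.924) and Ctcflos (0.912). Hbegf was most like Mmp15 (0.867), Efr3b (0.843) and Ccser2 (0.839), and Egf most like Cabcoco1 (0.858), Atp5g2 (0.853) and Bri3bp (0.835).

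Among the receptors, Egfr was most like Dtx4 (r = 0.957), Marveld1 (0.918) and Mrc2 (0.911). Erbb2 came nearest to Ier5l (0.971), Snx33 (0.954) and Efhb (0.947). Erbb4 was close to B230118H07Rik, Acad11 and Prkaca, each at 0.912. Erbb3, with 120 UMIs, was below the 200 UMIs needed for this measure.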

How the data were processed

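The deposited counts were raw UMI counts per gene and nucleus, made by the authors from GEXSCOPE libraries. The submitters' processing notes name genome build GRCm38 (mm10), and the aligner, the counter, the strand of counting and the annotation were not given in the sources used here. Positions and overlaps came from the GENCODE annotation of that build. Both matrices were processed with scanpy 1.11.5 in Python 3.11.15. Nuclei with fewer than 200 genes or over 20% mitochondrial UMIs were removed, 0 by the gene minimum and 83 (Control) and 15 (PD-1 inhibitor) by the mitochondrial limit. Scrublet then called 592 and 308 doublets, which were left out. The kept nuclei held 12103951 and 10290085 UMIs.

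Clustering was joint, on 30 principal components of 2000 variable genes ranked within each library, with 15 neighbours and Leiden resolution 1 (leidenalg 0.10.2). A cluster took the name of a type with at least 3 detected markers. A cluster that also carried at least 50% of another type's markers stayed unnamed, as did 1 cluster led by cell cycle genes. Marker lists for red cells and skeletal muscle were left out of that rule after the clusters were seen. With them, the cytoplasm-rich cardiomyocyte cluster went unnamed in a first run. Results of 1 cardiomyocyte cluster are not reported here. The 9 genes and the pathway lists were chosen with earlier results of these data known.

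Levels carry exact Poisson intervals and shares of nuclei exact Clopper-Pearson intervals. Log2 ratios add 0.5 UMI to each sum and carry an interval from the binomial distribution conditional on both counts (scipy 1.17.1). It was run on simulated counts drawn independently for each gene, which is what the interval assumes. That run therefore cannot show how the interval fares where UMIs gather in few nuclei. Thinning drew 500 UMIs per nucleus at random with a fixed seed, and no nucleus had fewer. All 9 genes are described. Of the pathway genes, those past 1.5-fold with at least 50 UMIs were named, as were the 3 genes most like each member and the leading genes of clusters. The valve, atrial and finer clusters, Tgfa, Ucp1 and Bmp10 were singled out after their values were seen. Alternatives covered the filters, doublets, the clustering, the divisor, centring, per-nucleus means, thinning, and equal mixes of clusters and depths. Further alternatives chosen after seeing the data left out the cytoplasm-rich cluster, dropped the 5 highest nuclei or, in adipocytes, the same share of them and equalised the finer clusters.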

Additional observations from a re-analysis of the deposited data

Results flagged for a closer look

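Some differences between the libraries had intervals wholly on opposite sides of 0 in different cells. Whether these differences differ from each other was not tested. Egfr was lower in the treated (PD-1 inhibitor) library in the fibroblasts led by Rgs17, Cxcl14 and Gfra1 (log2 ratio -0.24) and in those led by Inmt, Nkain2 and Fst (-0.46, or -0.12 after thinning), and higher in valve interstitial fibroblasts (0.75, or -0.12 after thinning). Erbb4 was lower in cardiomyocytes (-0.73) and MPs (-0.83, at a level read as background) and higher in mural cells (0.78, or 0.20 after thinning, and negative in 4 of 14 alternatives). At the level of clusters, Erbb4 was lower in the fibroblasts led by Rgs17, Cxcl14 and Gfra1 (-0.75). There its level was low, and the interval was -1.91 to 0.07 without the 5 highest nuclei of each library. Erbb4 was also lower in valve interstitial fibroblasts (-0.31, or -0.06 after thinning) and in cardiomyocytes led by Acta1, Xirp2 and Gm10053 (-0.63, or 0.12 after thinning). Lower values of Erbb4 were found as well in atrial cardiomyocytes (-1.57, or -1.14 after thinning) and in macrophages (-1.05, part of the same MPs). Erbb4 was higher in smooth muscle cells (1.17, or 0.68 after thinning).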

How the results depend on the processing

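The log2 ratio of each gene in its leading cell type gave 121 values under alternatives. Among them, 116 stayed within the counting interval of the reported value. Some leading cell types had too few UMIs for a counted ratio. These were glial cells for Hbegf (6 UMIs) and Erbb3 (22 UMIs), and mesothelial cells for Erbb2 (46 UMIs). Their intervals were wide, at -0.57 to 5.70, -0.70 to 2.04 and 0.13 to 2.20. All of their 10, 10 and 14 values stayed inside, which with such intervals says little about stability. Nrg1 in ECs was 0.20 with the same mix of clusters and 0.018 with the same mix of finer clusters. Nrg4 in adipocytes was 1.23 after thinning and -0.14 without the 5 highest nuclei, and Erbb4 in adipocytes was then -2.0. That step removes 5 of 16 treated but 5 of 154 Control nuclei. With the same share removed from each library, 48 in the Control, Nrg4 was 0.93 [0.06 to 1.67] and Erbb4 -0.32 [-2.42 to 1.01]. The alternatives with finer clusters and without the highest nuclei were chosen after seeing the data. So was the naming rule without red cell and skeletal muscle lists, which is part of the reported values; with those lists the cytoplasm-rich cardiomyocyte cluster went unnamed, and no ratios are given for that case. The number of pairs past 1.5-fold, 5 as reported, stayed within 1.5 times of this in 14 of 18 alternatives. It was 13 with at least 20 UMIs, 3 with at least 200 UMIs, 12 at the lower fold limit and 0 at 2-fold, where the limits themselves admit more or fewer pairs. The other 30 ratios gave 337 values. Of these, 314 stayed within the interval, 17 left it without a called value changing sign, and 6 were called values that changed sign. Values within the interval could also change sign, as for Erbb2 in ECs, which kept its sign in 7 of 14 alternatives. Erbb4 in mural cells was -0.24 with at least 500 genes, -0.57 with doublets kept, -0.60 at Leiden resolution 0.5 and -0.60 with the 9 genes kept among the variable genes, where the smooth muscle nuclei stood in an unnamed cluster, 0.27 as a mean over nuclei and 0.20 after thinning. After thinning, Egfr in valve interstitial fibroblasts was -0.12, Erbb4 in the cardiomyocytes led by Acta1 was 0.12, Hbegf in endocardial ECs was -0.08 and Egfr in the fibroblasts led by Inmt was -0.12. Thinning also gave -0.06 for Erbb4 in valve interstitial fibroblasts, -1.14 for Erbb4 in atrial cardiomyocytes, 0.63 for Nrg4 and -1.29 for Egfr in cardiomyocytes. These 2 cardiomyocyte ratios kept their sign in 9 of 15 alternatives each. Erbb4 in fibroblasts, 0.017 as reported, ran from -0.33 to 0.10 and left its interval in 4 of 14. Calls past 1.5-fold held in 3 of 6 alternatives for Egfr in valve interstitial fibroblasts and in 2 of 6 for Erbb4 in the cardiomyocytes led by Acta1. Erbb2 in fibroblasts, short of 1.5-fold as reported, was past it in 9 of 14 alternatives. Apart from these constructions, the cause was not tested. Egf in cardiomyocytes (-0.85 to -0.59) and Egfr in fibroblasts (-0.28 to -0.18) kept their direction under each alternative run, and Erbb4 in cardiomyocytes did so from -0.75 to -0.48, past 1.5-fold in 11 of 15 alternatives. Thinning lowered 15 of the 18 shares of nuclei beyond their interval. Depth limits what can be said of scarce genes, and Erbb3 had the fewest UMIs of the 9 genes, 120 in named nuclei.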
